A study of Mus musculus with 36 samples.

Results

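The 35 genes described here, referred to as G2 and mitosis genes, encode the cyclins, kinases, motors and kinetochore proteins that carry a cell from the end of DNA replication through division. They were chosen by name, with earlier results of these data known, and each symbol matched 1 of the 49585 genes in every table. Membership used no threshold on measured values. All 35 passed the filter on low counts, among 13364 genes tested, and their smallest count in any of the 30 libraries without a density label was 93, for Cdc25c.

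Entry into mitosis is driven by Cdk1 bound to cyclins A and B, after the phosphatase Cdc25c has removed inhibitory phosphates from the kinase. Plk1 and the Aurora kinases then build the spindle, the checkpoint kinases Bub1, Bub1b (BubR1) and Ttk (Mps1) hold the cell until every kinetochore is attached, and the anaphase-promoting complex with its cofactor Cdc20 and its enzyme Ube2c destroys cyclin B so that chromosomes separate. The transcripts of these genes accumulate in G2 and decline after division. The DREAM and MuvB complexes act on many of their promoters at a short sequence called the CHR, and the factor NF-Y binds CCAAT boxes there.

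The RNA came from mouse embryonic fibroblasts (MEFs), mesenchymal cells grown from embryos, that carry wild-type (WT) Tbk1 alleles or the knock-in allele N129D. Tbk1 is a kinase of innate immune signalling and selective autophagy. There were 3 WT lines (named E2.1, E2.7 and E1.5), 4 heterozygous (het) lines (E2.8, E1.3, E2.6 and E2.5) and 3 homozygous (hom) lines (E2.9, E1.4 and E2.2). Values per line are given below in the order E1 before E2 and then by number. Each line gave an untreated library, a library after 4 h of poly(I:C), which is a synthetic double-stranded RNA labelled pI:pC by the submitters, and a library after 4 h of antimycin and oligomycin (AO), which block respiratory complex III and ATP synthase. The design text speaks of quadruplicates, which only the het groups have. WT line E1.5 gave 6 further libraries, 1 for each treatment at high and at low density. Embryonic age is not given in the sources used here, and nor is the agent or vehicle of the untreated cells.

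The 30 libraries of the 9 groups held 3689149 to 14879237 counts each, the 3 high-density libraries 16474021 to 22756884, and the 3 low-density libraries 5391401 to 6307971. All 12 fibroblast markers were detected, with a summed level of 7760 to 18500 CPM, that is, counts scaled to a common library size. The 10 macrophage markers summed to 132 to 217 CPM in the 3 libraries of hom line E2.9 and to 2.61 to 49.1 CPM in all others. Tbk1 mRNA ran from 39 to 49.7 CPM over the 10 untreated lines, and an amino acid substitution need not change it, so it does not check the labels. In bulk RNA, fewer cells in G2 or mitosis and less of these RNAs per cell cannot be told apart.

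The untreated and AO libraries of hom line E1.4 stood apart from all others by transcript length. In them, transcripts over 6 kb lay below transcripts under 2 kb in their median deviation from the lines under the same treatment, by a log2 difference of -0.88 (untreated) and -1.44 (AO). That difference was between -0.15 and 0.25 in each of the other 34 libraries, the poly(I:C) library of E1.4 included at 0.08. The members followed: in the AO library of E1.4, Ube2c, Birc5 and Cenpa, whose transcripts are short, were 1.25, 1.15 and 1.02 log2 units above the median of the 10 lines, and the longer Hmmr, Cenpf and Ect2 were at -1.06, -0.94 and -0.81. Mki67, though over 6 kb, was at -0.10 there and at -0.61 in the untreated library. The counts of members called in comparisons that include this line are also given without its 3 libraries. Group levels of hom lines include it.

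**Figure D1:**
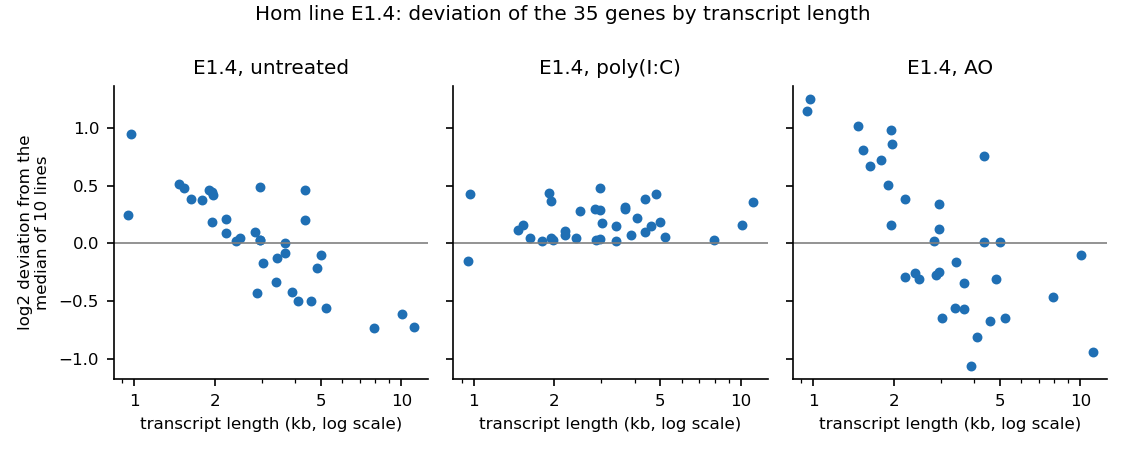
Deviation of each of the 35 genes in the 3 libraries of hom line E1.4 from the median of the 10 lines under the same treatment (y axis, log2) against the length of its principal transcript (x axis, kb, log scale); each point is a gene. In the untreated and AO libraries most short transcripts lie above 0 and most long ones below it, with Ube2c at 0.95 and 1.25 and Cenpf at -0.72 and -0.94; in the poly(I:C) library Cenpf is at 0.36.

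The promoters of the members were searched for the CHR and the CCAAT box. Genes of this kind are known for both, so their share among the members is a description and not an independent result. RefSeq (GRCm38.p6) gave 300-base windows, from 250 bases before to 50 after the annotated start, for 29 of the 35; Aurkb, Ccna2, Cdc25c, Dlgap5, Kif20a and Tpx2 had no entry. The windows were searched on both strands for the CHR, spelled TTTGAA or TTCGAA, and for CCAAT, and matches could overlap. A CHR lay in the windows of 24 of the 29 genes (82.8%), against 19.2% of all 32851 windows in the table, and a CCAAT box in 23 (79.3%) against 37.4%. Both lay in 21 (72.4%) against 7.52%. Members were counted as genes, of which Ect2 and Prc1 have more than 1 window, while the shares over the table are of windows. Among genes that fell under AO 20 of 24 had a CHR, and among those that did not pass 4 of 5; with the calls made without E1.4 these were 23 of 27 and 1 of 2. A match of letters is a description and not a bound site, and the RefSeq start of Kif2c lies 3867 bases, that of Cdca8 2394 bases, inside the gene's outermost GENCODE start. The windows of 5 genes are printed 5′ to 3′ on the strand of the gene, with CHR and CCAAT matches on either strand in capitals: Plk1, Cenpf and Cdc20 because they fell under AO, and Bub1 and Birc5 because they did not pass there. Plk1 is at chr7:122159185-122159484 (plus strand), Cenpf at chr1:189688037-189688336 (minus), Cdc20 at chr4:118437294-118437593 (minus), Bub1 at chr2:127831810-127832109 (minus) and Birc5 at chr11:117848987-117849286 (plus).
Plk1: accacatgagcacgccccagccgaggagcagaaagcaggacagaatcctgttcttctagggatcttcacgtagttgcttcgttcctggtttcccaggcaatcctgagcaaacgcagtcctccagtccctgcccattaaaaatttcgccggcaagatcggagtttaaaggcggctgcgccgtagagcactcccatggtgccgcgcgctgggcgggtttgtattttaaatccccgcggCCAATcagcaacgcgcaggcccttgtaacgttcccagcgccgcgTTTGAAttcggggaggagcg
Cenpf: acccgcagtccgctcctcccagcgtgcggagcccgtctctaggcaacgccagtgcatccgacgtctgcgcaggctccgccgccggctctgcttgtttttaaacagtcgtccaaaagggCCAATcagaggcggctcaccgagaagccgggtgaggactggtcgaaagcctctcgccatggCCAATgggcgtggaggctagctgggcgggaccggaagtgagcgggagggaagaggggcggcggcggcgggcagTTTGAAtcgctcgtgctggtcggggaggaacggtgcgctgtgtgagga
Cdc20: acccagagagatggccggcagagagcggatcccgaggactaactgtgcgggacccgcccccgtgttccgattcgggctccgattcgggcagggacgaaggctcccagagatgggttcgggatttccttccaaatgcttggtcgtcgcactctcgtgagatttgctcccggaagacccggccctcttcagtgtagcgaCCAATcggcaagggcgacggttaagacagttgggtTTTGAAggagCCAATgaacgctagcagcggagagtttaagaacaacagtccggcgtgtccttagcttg
Bub1: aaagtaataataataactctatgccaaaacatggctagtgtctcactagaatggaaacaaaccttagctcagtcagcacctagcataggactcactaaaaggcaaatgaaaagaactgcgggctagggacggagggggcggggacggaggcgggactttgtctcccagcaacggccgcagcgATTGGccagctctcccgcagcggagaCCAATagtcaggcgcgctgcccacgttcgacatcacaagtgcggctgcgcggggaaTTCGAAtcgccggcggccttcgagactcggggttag
Birc5: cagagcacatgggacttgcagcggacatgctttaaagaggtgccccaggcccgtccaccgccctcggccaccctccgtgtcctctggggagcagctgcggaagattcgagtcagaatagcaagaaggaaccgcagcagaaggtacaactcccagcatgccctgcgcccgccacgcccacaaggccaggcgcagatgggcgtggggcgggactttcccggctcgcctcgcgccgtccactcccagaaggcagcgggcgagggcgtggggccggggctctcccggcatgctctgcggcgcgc
Bub1, which did not pass under AO, carries both motifs, as do Plk1, Cenpf and Cdc20, while the window of Birc5 holds neither.

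Per length of transcript (RPKM, CPM per kb of the principal transcript), the members covered a wide range in the 10 untreated lines. Ube2c stood at 155 ± 43 RPKM (SD, n = 10), Top2a, which untangles replicated DNA, at 138 ± 18.3 and cyclin B1 (Ccnb1) at 128 ± 6.54. At the other end were the checkpoint kinase Ttk at 19.6 ± 2.31, Cdc25c at 17.7 ± 2.43 and the kinetochore protein Cenpf at 14.8 ± 2.39. The ranges over lines of the 3 highest overlapped. Ube2c ran from 128 to 272 RPKM, Top2a from 96.3 to 158 RPKM and Ccnb1 from 119 to 138 RPKM. The ranges of the 3 lowest overlapped too. All genes were read in the same libraries, so overlapping ranges do not show that their levels are alike. The order of the genes within lines was not tested. The untreated E1.4 library set the top of the Ube2c range and the bottom of the Top2a range.

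The first comparison asked how the members responded to 4 h of mitochondrial block. Most of them were lower under AO, and their sum fell in every line. The summed level of the 35 genes went from 6775, 6767 and 6193 CPM in untreated WT lines to 5036, 5078 and 4494 CPM under AO, a fall of 26% ± 1.23 (SD, n = 3 lines). The fall was 25.3% ± 1.76 in het lines (n = 4) and 24.5% ± 3.59 in hom lines (n = 3), and no AO library reached the lowest untreated one. The 12 fibroblast markers also moved: 4 fell and 0 rose under AO, with a median log2 change of -0.35, and whether this bears on the members was not tested. As the mean of the 3 genotypes, 30 of 35 members passed as lower and 0 as higher, where 16.7% of all 13364 genes passed as lower. Their median log2 change was -0.44, against -0.02 over all genes, and 29 of the 35 were lower in each of the 10 lines, as were 16.4% of all genes. In the 9 lines other than E1.4, 31 were, as were 19.4% of all genes.

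**Figure D2:**
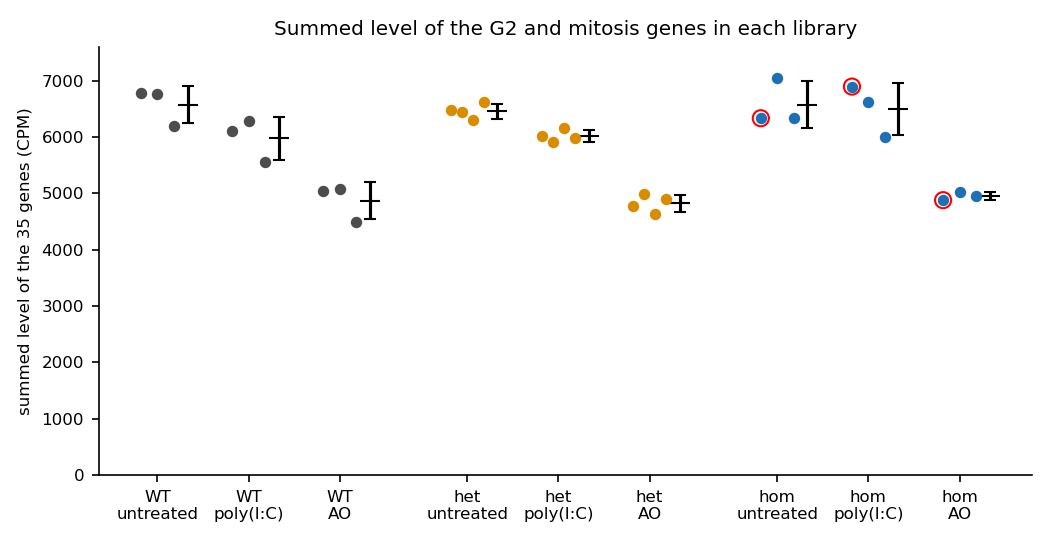
Summed level of the 35 genes (y axis, CPM scaled by TMM, from 0) in each library of the 9 groups (x axis); points are lines, bars beside them the mean and SD, and red rings mark hom line E1.4. The AO libraries sit between 4494 and 5078 CPM and the untreated ones between 6193 and 7051 CPM, while the poly(I:C) libraries lie between 5551 and 6897 CPM.

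Within genotypes, 17 members fell in WT lines (3.43% of all genes did), 18 in het lines (4.95%) and 17 in hom lines (5.73%). By edgeR 0 members passed as higher in any of the 3, beside 4.23%, 6.17% and 7.36% of all genes; DESeq2 called 0 as well, and at an unadjusted p under 0.05 only 1 member was higher, in hom lines. These counts depend on the fit and on the number of lines. For the alternatives below, the share of all genes is given only for the fits without E1.4. The other counts therefore do not show whether the members moved or all genes did. With the compared groups fitted alone 0 members passed in hom lines and 27 in WT lines, and with no filter on low counts 8 passed in WT lines. Leaving out any WT line left 7 in WT, and leaving out hom line E2.2 left 10 in hom. Leaving out het line E2.8 left 12 in het lines. With the line as a block, which uses the pairing of libraries, 28 fell in het lines, and 32 in the mean of the 3 genotypes, with Cenpa and Ube2c added. Without E1.4, 21 fell in hom lines, beside 5.36% of all genes. In the mean of the 3 genotypes 33 fell without it, where 20.3% of all genes passed as lower, and Bub1 and Birc5 were the 2 left over.

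Among the cyclins, their kinase and its phosphatase, all 5 members fell in the mean of the 3 genotypes. Ccna2, which encodes cyclin A2, read 333, 341 and 317 CPM in untreated WT lines and 241, 226 and 211 under AO. Its groups did not overlap in het lines either (321 ± 20.1 against 229 ± 8.66 CPM; SD, n = 4) or in hom lines (330 ± 14.8 against 228 ± 16.8; n = 3), and its log2 change was -0.52 ± 0.04, adjusted p = 3.23e-09 (SE; edgeR). Ccnb1 went from 325 ± 21.2 to 262 ± 18.2 CPM in WT lines, from 315 ± 10.9 to 259 ± 8.04 in het lines and from 320 ± 21.6 to 248 ± 30.9 in hom lines, a smaller change of -0.32 ± 0.05. With all lines, the mitotic kinase Cdk1 (-0.32 ± 0.09), cyclin B2 (Ccnb2, -0.30 ± 0.10) and Cdc25c (-0.28 ± 0.10) fell least surely of the 5. Their adjusted p-values were 0.00738, 0.0234 and 0.0391 in edgeR. That standing depends on E1.4. Without it Cdk1 was at -0.37 ± 0.06, Ccnb2 at -0.37 ± 0.09 and Cdc25c at -0.40 ± 0.06, beside Ccnb1 at -0.29 ± 0.05. The adjusted p-values of the first 3 were then 3.59e-05, 0.00175 and 4.28e-05 (edgeR).

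Of 6 kinases 5 fell. Plk1 (chromosome 7, 122159439 to 122169873, plus strand, GRCm38) moved most. It read 116, 136 and 103 CPM in untreated WT lines and 69.5, 79.3 and 66.1 under AO, 113, 124, 130 and 126 (untreated) and 60.8, 84.3, 76.5 and 72.1 (AO) in het lines, and 133, 132 and 117 (untreated) and 57.8, 73.3 and 59.6 (AO) in hom lines. Every AO library was below every untreated one, and the log2 change was -0.83 ± 0.07, adjusted p = 6.18e-09 (edgeR). Bub1b, a checkpoint kinase-like protein that inhibits Cdc20, fell from 152 ± 18.5 to 103 ± 1.94 CPM in WT lines, 148 ± 6.01 to 103 ± 4.15 in het lines and 156 ± 6.6 to 97.6 ± 16.3 in hom lines (-0.59 ± 0.06). Ttk went from 58.1 ± 6.94 to 39.7 ± 4.32 CPM, 55.8 ± 5.07 to 38.5 ± 4.77 and 55.2 ± 10.2 to 40 ± 8.21 in the same order (-0.52 ± 0.08). Aurora A (Aurka, -0.43 ± 0.08) and Aurora B (Aurkb, -0.31 ± 0.07) also fell.

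Bub1, Bub1b's relative at the kinetochore, was the exception. It lay between 111 and 139 CPM in the 3 untreated WT lines and read 134, 120 and 106 under AO, 119, 121, 121 and 111 (untreated) and 136, 118, 105 and 110 (AO) in het lines, and 110, 121 and 120 (untreated) and 107, 120 and 140 (AO) in hom lines. Untreated and AO values overlapped in all 3 genotypes, and the 95% interval of the log2 change was -0.15 to 0.14 (adjusted p = 0.976, edgeR). That interval excludes the change of Plk1 and of Bub1b.

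All 5 kinesins fell, with a median of -0.58. Kif2c, a depolymerase that corrects faulty microtubule attachments (chromosome 4, 117159639 to 117182639, minus strand), had the largest change of the 35: 151, 145 and 130 CPM became 83.7, 87.6 and 63.8 in WT lines, 138, 133, 128 and 141 became 80.4, 75.7, 80.3 and 72.4 in het lines and 151, 160 and 141 became 78.9, 75.1 and 77.2 in hom lines (-0.88 ± 0.07, adjusted p = 7.14e-10; edgeR). Untreated and AO values were well apart in all 10 lines. Kif20a, a motor of the cleavage furrow, went from 283 ± 21.7 to 168 ± 9.45 CPM in WT lines, from 272 ± 8.56 to 168 ± 14 in het lines and from 280 ± 18.3 to 144 ± 30.5 in hom lines (-0.80 ± 0.07). Kif11, the motor that pushes spindle poles apart, changed by -0.44 ± 0.07, from 236 ± 9.46 to 167 ± 8.95 CPM, 225 ± 19.4 to 173 ± 16 and 226 ± 30.6 to 168 ± 25.7 in the same order. Kif23, of the central spindle (-0.58 ± 0.08), and the chromosome-bound Kif4 (-0.51 ± 0.05) lay between them.

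The 5 genes of spindle assembly all fell as well. Dlgap5, which bundles spindle fibres, changed most at -0.67 ± 0.06, followed by Nusap1 at -0.55 ± 0.10 and the hyaluronan-mediated motility receptor Hmmr at -0.51 ± 0.11. Tpx2, the activator of Aurora A, went only from 324 ± 22.8 to 279 ± 15.9 CPM in WT lines, 306 ± 21.7 to 265 ± 25 in het lines and 340 ± 31.2 to 285 ± 9.82 in hom lines (-0.23 ± 0.06). Prc1, which crosslinks the midzone, showed 308 ± 7.6 and 256 ± 18.9, 295 ± 20 and 249 ± 19.6, and 298 ± 38.4 and 231 ± 58.3 CPM in the same order (-0.29 ± 0.07). Both passed in the mean of the genotypes and in none of the 3 alone.

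The centromere, kinetochore and passenger genes divided, with 4 of 7 lower. Cenpf, a large kinetochore protein (chromosome 1, 189640606 to 189688086, minus strand), read 167, 185 and 146 CPM in untreated WT lines and 103, 104 and 79.1 under AO, 163, 156, 169 and 183 (untreated) and 89.8, 94.9, 106 and 98.1 (AO) in het lines, and 102, 197 and 177 (untreated) and 51.1, 98.8 and 101 (AO) in hom lines (-0.84 ± 0.13, adjusted p = 1.69e-05; edgeR). Within WT and within het lines the values did not overlap; in hom lines the untreated E1.4 library, at 102 CPM, was barely above the AO library of E2.9, at 101 CPM. The motor Cenpe, which hauls chromosomes to the equator, went from 215 ± 20.9 to 135 ± 15.4 CPM in WT lines, 206 ± 10.7 to 131 ± 15.6 in het lines and 186 ± 54.7 to 110 ± 17.8 in hom lines (-0.70 ± 0.11). Nuf2 (-0.50 ± 0.06) and its partner in the same microtubule-binding complex, Ndc80 (-0.26 ± 0.07), both fell. Under AO Ndc80 stood at 66.7 ± 4.74, 63 ± 8.23 and 77.8 ± 9.72 CPM in WT, het and hom lines.

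The histone variant Cenpa and the passenger proteins survivin (Birc5) and borealin (Cdca8) did not pass. Birc5 (chromosome 11, 117849251 to 117855743, plus strand) read 105, 97.3 and 102 CPM in untreated WT lines and 104, 101 and 85.4 under AO, 109, 98.5, 121 and 110 (untreated) and 102, 94.6, 107 and 103 (AO) in het lines, and 124, 103 and 93.4 (untreated) and 226, 98.5 and 101 (AO) in hom lines. The values overlapped in all 3 genotypes, and the 226 CPM of E1.4 stood alone. The log2 change of Birc5 was 0.08 ± 0.11, adjusted p = 0.636 with that line and -0.07 ± 0.05, adjusted p = 0.321 without it (edgeR). Without E1.4 Cenpa (-0.34 ± 0.08, adjusted p = 0.00105), Cdca8 (-0.14 ± 0.05, adjusted p = 0.0269) and Ube2c (-0.32 ± 0.08, adjusted p = 0.00213) passed as lower (edgeR), and with the line as a block Cenpa (-0.26 ± 0.08, adjusted p = 0.0112) and Ube2c (-0.27 ± 0.07, adjusted p = 0.00254) did so in edgeR.

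Among the 3 genes grouped here with the anaphase-promoting complex, Cdc20 and Cdca3 fell. The grouping does not make Cdca3 a part of that complex. Cdc20 read 142, 153 and 152 CPM in untreated WT lines and 110, 117 and 100 under AO, and went from 160 ± 6.17 to 102 ± 6.94 in het lines (SD, n = 4) and from 173 ± 27.4 to 127 ± 44.6 in hom lines (n = 3), with -0.52 ± 0.09. Ube2c stood at 138 ± 15.8 and 113 ± 5.93, 140 ± 14.6 and 108 ± 7.9, and 176 ± 76.2 and 162 ± 88.8 CPM in the same order. Its wide spread in hom lines is that of E1.4, which read 263 CPM untreated and 265 CPM under AO.

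Both cytokinesis genes and both genes of chromosome structure fell. Anln, the anillin scaffold of the contractile ring, went from 326 ± 12.6 to 282 ± 7.38 CPM in WT lines, 344 ± 4.71 to 290 ± 21.5 in het lines and 300 ± 54.5 to 257 ± 65.5 in hom lines (-0.23 ± 0.08). Ect2, the RhoA activator, showed 206 ± 3.34 and 165 ± 12.1, 199 ± 18.4 and 170 ± 10, and 181 ± 36.7 and 153 ± 49.2 CPM (-0.26 ± 0.09). The changes of this pair were among the smallest that passed. Top2a fell from 756 ± 70.6 to 551 ± 51.2 CPM, 717 ± 53.4 to 542 ± 37.3 and 693 ± 170 to 526 ± 148 in the same order (-0.42 ± 0.09). The proliferation antigen Mki67 read 425, 448 and 395 CPM in untreated WT lines and 302, 308 and 268 under AO, and its change was -0.53 ± 0.08, with 424 ± 27 and 283 ± 23.1 CPM in het lines and 375 ± 85.3 and 268 ± 9.96 CPM in hom lines.

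**Figure D3:**
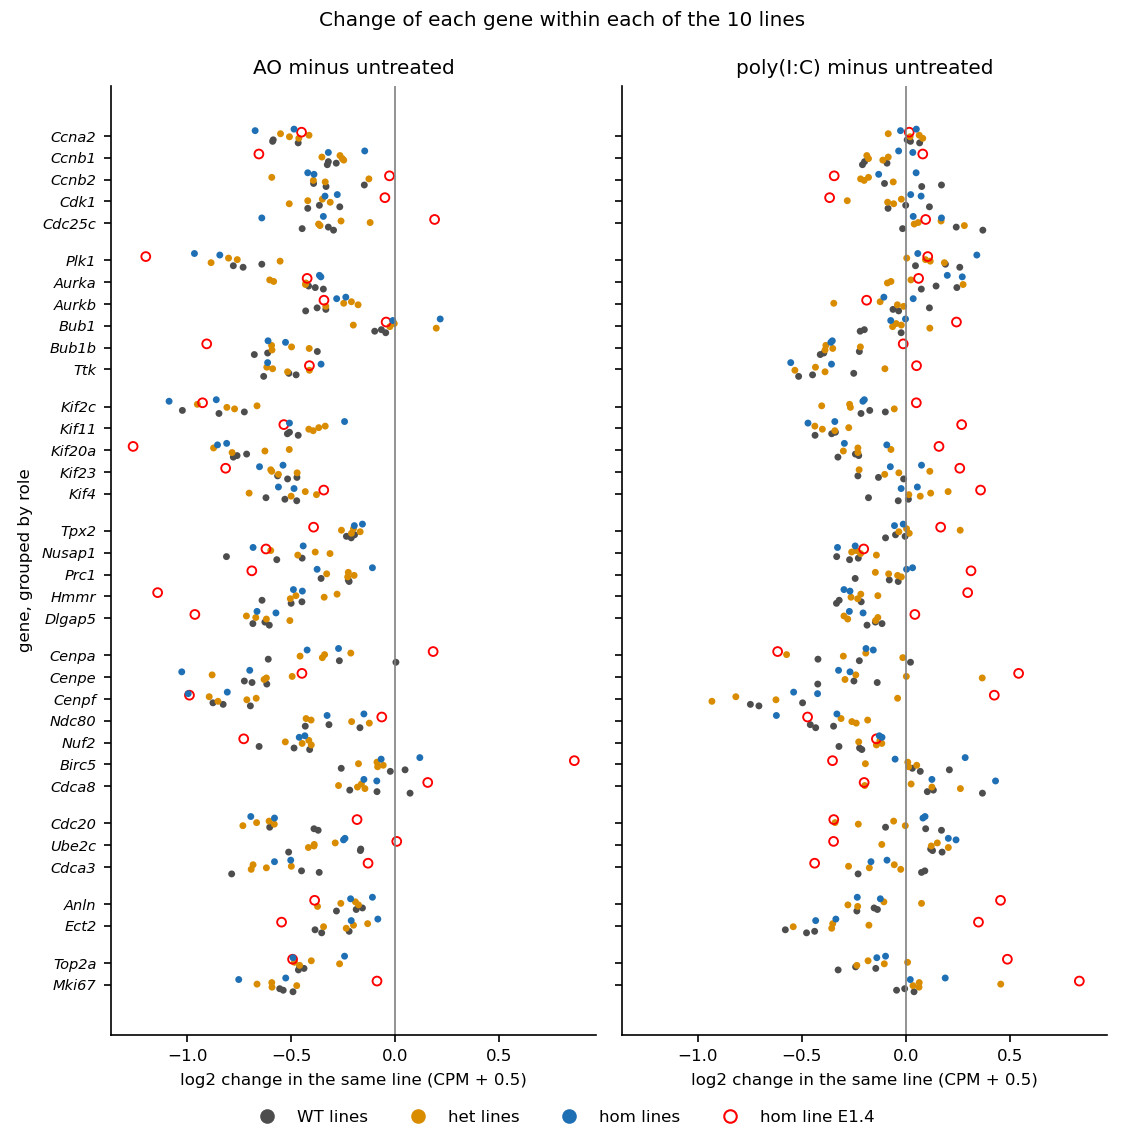
Log2 change of each of the 35 genes (y axis, by role) under AO (left) and poly(I:C) (right) within each of the 10 lines (x axis, from CPM + 0.5); filled points are coloured by genotype and red rings are hom line E1.4. Under AO 29 genes lie left of 0 in all 10 lines; under poly(I:C) 4 do, and Plk1 lies right of 0 in all 10.

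Fewer members passed under poly(I:C), the second treatment, than under AO. Their summed level was 9.18% ± 1.75 lower in WT lines (SD, n = 3), 6.70% ± 3.28 lower in het lines (n = 4) and 0.943% ± 8.5 lower in hom lines (n = 3), where the change was 8.87% in E1.4, -6.16% in E2.2 and -5.54% in E2.9. As the mean of the 3 genotypes 8 of 35 members fell and 0 rose, beside 11.8% of all genes lower and 9.91% higher, with a median of -0.09 (0.00 over all genes). The 8 were Cenpf, Ndc80, Ttk, Ect2, Bub1b, Kif11, Nuf2 and Dlgap5. Without E1.4, 15 fell, beside 17% of all genes, and Cdca8 rose (0.17 ± 0.05, adjusted p = 0.012; edgeR).

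Within single genotypes almost nothing passed in the fit of all lines without a block. In WT lines edgeR called 0 members, with 8 at an unadjusted p under 0.05, all lower; 1.92% of all genes passed as lower there and 1.29% as higher, DESeq2 called 2 members and the fit with the line as a block called 8. In het lines only Bub1b fell, beside 2.43% of all genes (2.24% rose), and 8 did with the line as a block. In hom lines only Ndc80 fell, beside 0.726% of all genes (0.554% rose), and 2 members did with the block. Without E1.4, 4 fell in hom lines, beside 2.22% of all genes. For the DESeq2 and block counts the share of all genes is not given here. Leaving out a het line other than E2.6, or hom line E2.2 or E2.9, took the single call of that genotype away.

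By role, 3 of 7 centromere and kinetochore genes fell under poly(I:C), 2 of 6 kinases, 1 of 5 kinesins (Kif11), 1 of 5 spindle assembly genes (Dlgap5) and 1 of 2 cytokinesis genes (Ect2). Cenpf read 102, 110 and 103 CPM in WT lines, 84.9, 101, 164 and 104 in het lines and 137, 147 and 122 in hom lines under poly(I:C), with a log2 change of -0.49 ± 0.13, adjusted p = 0.00749 (edgeR). All 3 WT values lay below the untreated WT values, but het line E2.6, at 164 CPM, was near its untreated 169 CPM, and hom line E1.4, at 137 CPM, was above its untreated 102 CPM. Leaving out E2.6 gave 10 members lower. Ndc80 read 59.9, 68.9 and 57.2 CPM against 81.2, 87.9 and 78.8 in untreated WT lines, 66, 62.3, 60.4 and 69.7 against 78, 74.7, 68.7 and 86.7 in het lines and 66.7, 60.9 and 61.6 against 92.8, 94.1 and 77.7 in hom lines (-0.38 ± 0.07, adjusted p = 0.000165; edgeR). It was lower in all 10 lines, as were Bub1b, Nusap1 and Nuf2, and as were 8.01% of all genes; 12 members were lower in each of the 9 lines other than E1.4, as were 13.2% of all genes. Ttk stood at 43.5 ± 1.26, 43.2 ± 2.86 and 44.8 ± 4.32 CPM in WT, het and hom lines under poly(I:C) (-0.36 ± 0.08). Ect2 changed by -0.34 ± 0.09, Bub1b by -0.31 ± 0.06, Kif11 by -0.31 ± 0.07, Nuf2 by -0.18 ± 0.06 and Dlgap5 by -0.17 ± 0.05.

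The cyclin group and the anaphase-promoting complex group had no member called. Ccna2 stood at 338 ± 16.7, 326 ± 14.4 and 333 ± 8.16 CPM in WT, het and hom lines, and the 95% interval of its log2 change was -0.07 to 0.11. Ccnb1 stood at 290 ± 25.2, 286 ± 13.4 and 327 ± 34.4 CPM and Cdc20 at 155 ± 11.3, 143 ± 10.3 and 165 ± 15 CPM, with intervals of -0.20 to 0.02 and -0.23 to 0.12. Plk1 was higher in each of the 10 lines, at 139, 141 and 118 CPM in WT, 128, 135, 139 and 126 in het and 144, 167 and 122 in hom lines; 8.43% of all genes were higher in every line. The smallest gap was in het line E2.8, where both values rounded to 126 CPM. Its log2 change did not pass in the unpaired fit (0.15 ± 0.07, adjusted p = 0.158; edgeR) and passed with the line as a block (0.14 ± 0.05, adjusted p = 0.0208; edgeR). The block also brought in Aurka as higher (0.12 ± 0.04, adjusted p = 0.0358; edgeR) and Kif2c, Kif20a, Nusap1 and Cenpa as lower, for 12 lower and 2 higher.

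Levels of the other abundant members under poly(I:C) follow, in the order WT, het and hom lines (CPM, SD, n = 3, 4 and 3). Bub1b stood at 119 ± 6.38, 117 ± 3.82 and 132 ± 16.1, Bub1 at 115 ± 20.3, 118 ± 9.1 and 122 ± 7.83, and Kif11 at 181 ± 4.44, 175 ± 10.9 and 200 ± 37.1. Kif20a read 235 ± 17.5, 236 ± 15 and 267 ± 35.6, Tpx2 314 ± 28.3, 319 ± 10.2 and 350 ± 58.9, and Prc1 284 ± 27.6, 280 ± 9.04 and 322 ± 23.5. Of these 6 genes Bub1b and Kif11 passed. Kif2c stood at 127 ± 10.3, 114 ± 15 and 139 ± 16.8. Cenpe, at 179 ± 30.1, 205 ± 55.1 and 178 ± 13, spread most in het lines, where E2.5 reached 282. Ube2c stood at 152 ± 20.7, 151 ± 25.5 and 172 ± 31.9, Anln at 288 ± 10.5, 315 ± 36.2 and 304 ± 28.2, Ect2 at 146 ± 8.01, 155 ± 6.57 and 162 ± 15.1, Top2a at 641 ± 60.9, 655 ± 27.4 and 719 ± 27.4, and Mki67 at 421 ± 24.2, 478 ± 95.1 and 468 ± 25.7. Mki67 in het line E2.6 reached 617 CPM, above each of the other libraries without a density label. In that library the length difference described for E1.4 was 0.25, the highest of all, and its part in this value was not tested.

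The 2 treatments share their untreated libraries, so they were compared directly. Under AO 25 of 35 members were lower than under poly(I:C) and 0 were higher, beside 20.4% of all genes lower and 21% higher, with a median log2 difference of -0.31 (-0.03 over all genes). The difference was largest for Plk1 (-0.97 ± 0.07, adjusted p = 3.25e-10; edgeR), which read lower under AO in each of the 10 lines, followed by Kif2c (-0.70 ± 0.07), Mki67 (-0.69 ± 0.08) and Kif20a (-0.62 ± 0.07). In all, 18 members were lower under AO in every line, as were 13.6% of all genes, and 24 in the 9 lines other than E1.4, as were 20.3%. Markers moved in this comparison too: 7 of 12 fibroblast markers were lower under AO and 0 higher, with a median of -0.72, and 2 of 3 chondrocyte markers tested were lower, with a median of -0.87. Their part in the members' difference was not tested.

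Among the 10 members that did not pass, Ndc80 had a difference of 0.12 ± 0.07 with a 95% interval of -0.01 to 0.26, Ect2 0.07 ± 0.09 (-0.11 to 0.26), Kif11 -0.13 ± 0.07 (-0.27 to 0.01) and Ttk -0.15 ± 0.08 (-0.32 to 0.02). Bub1, Birc5, Cenpa, Anln, Ccnb2 and Ube2c were the others. With the line as a block Ndc80 passed as higher under AO (0.12 ± 0.05, adjusted p = 0.0459; edgeR), and Ccnb2, Ttk and Ube2c as lower. Without E1.4, 28 were lower, beside 25.8% of all genes, and Ect2 was higher (0.18 ± 0.05, adjusted p = 0.00328; edgeR).

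**Figure D4:**
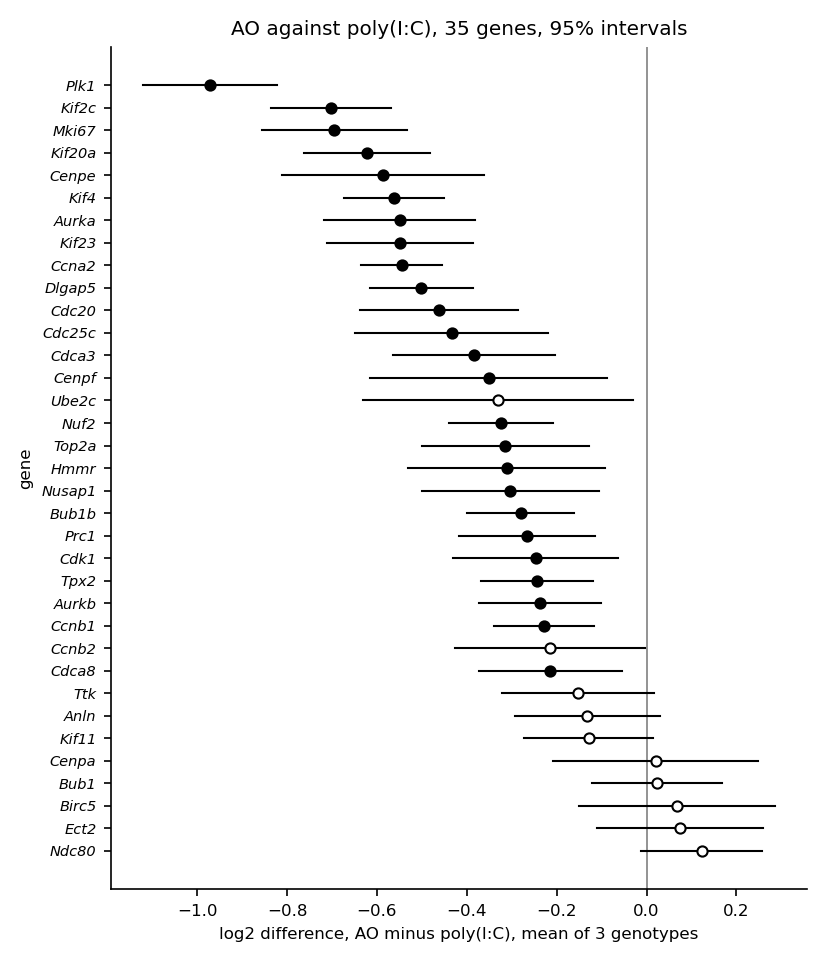
Log2 difference between AO and poly(I:C) for the 35 genes (x axis, mean of the 3 genotypes; y axis, genes in order), with 95% intervals; filled points passed the test. The 25 filled points lie left of 0, from Plk1 at -0.97 to Cdca8 at -0.21, and Ndc80 is farthest right at 0.12.

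No effect of the N129D allele on the members was detected. In edgeR 0 of 35 passed between hom and WT lines, in untreated, poly(I:C) or AO libraries, beside 0.015%, 0.254% and 0.0% of all genes lower and 0.0% higher. Between het and WT lines 0 members and 0.0% of all genes passed in each of the 3 treatments. At an unadjusted p under 0.05 the count was 3 (hom against WT under AO, all higher: Birc5, Cdca3 and Cenpa) and 0 in the other 5 comparisons. Those 3 rest on E1.4: Birc5 was at 0.56 ± 0.19 with it and 0.05 ± 0.09 without it, Cdca3 at 0.45 ± 0.16 and 0.16 ± 0.13, and Cenpa at 0.42 ± 0.20 and -0.01 ± 0.14. DESeq2 called 0 in all 6. The median differences of the members, hom minus WT, were 0.02 for untreated, 0.12 for poly(I:C) and 0.01 for AO libraries; without E1.4 the poly(I:C) value was 0.05. Under poly(I:C) 32 of the 35 differences were above 0, and 28 without E1.4, though none passed. The share of all genes above 0 is not given here, and their median was 0.02. Members read in the same few lines are not separate observations, so the count of signs is a description only.

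The intervals still leave room for changes of moderate size. The median width of a member's 95% interval was 0.58 log2 units for hom against untreated WT lines, and bounds over the 35 ran from -0.61 to 0.89. For Plk1 the untreated difference between hom and WT lines was 0.10 ± 0.13 (-0.16 to 0.37) and for Kif2c 0.08 ± 0.12 (-0.16 to 0.32). The responses did not differ detectably either: 0 members passed for AO or poly(I:C) in hom or het against WT lines, 0 had an unadjusted p under 0.05, and DESeq2 called 0. The largest difference in the AO response, hom minus WT, was that of Birc5 at 0.48 ± 0.27 (-0.08 to 1.04), and it was 0.10 ± 0.13 without E1.4. That of Plk1 was -0.28 ± 0.18 (-0.66 to 0.10).

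Density was varied in WT line E1.5 alone, with 1 library for each density and treatment, so the treatments stand in for replicates in the fit. The density p-values therefore measure how the difference varied between treatments in that line, and do not speak for other lines. Members were lower at high density: 20 of 35 passed as lower and 0 as higher, beside 8.41% of the 12229 genes tested (8.62% passed as higher), with a median of -0.24 (0.01 over all genes). High was below low in all 3 treatments for 30 members, as for 22.7% of all genes. Cenpf read 154 CPM at high and 174 at low density untreated, 96.9 and 149 under poly(I:C), and 78.2 and 118 under AO (-0.46 ± 0.09, adjusted p = 0.00607; edgeR). Mki67 read 376 and 407, 399 and 608, and 205 and 313 CPM in the same order (-0.44 ± 0.10), with the gap mostly in the treated pairs. Anln read 282 and 358, 257 and 362, and 238 and 326 CPM (-0.43 ± 0.06, adjusted p = 0.000349; edgeR), a gap of like size in each treatment.

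By role, 4 of 5 spindle assembly genes, 3 of 5 kinesins, 3 of 5 cyclin-group genes and both cytokinesis genes passed. So did 3 of 7 centromere genes, 2 of 3 grouped with the anaphase-promoting complex, 2 of 6 kinases and Mki67. Birc5 and Cdca8, which did not pass under AO, were lower at high density in every treatment: Birc5 read 92.8 against 125 CPM untreated, 97.4 against 127 under poly(I:C) and 91.7 against 118 under AO (-0.39 ± 0.06, adjusted p = 0.000689; edgeR). Bub1, another that did not pass under AO, also fell (-0.23 ± 0.06, adjusted p = 0.0191; edgeR). Plk1 and Kif2c, near the head of the AO response, did not pass here, at -0.18 ± 0.07 and -0.18 ± 0.07. These estimates were close to that of Bub1, so passing does not set Bub1 apart from them. Whether members respond differently to density and to AO was not tested. Leaving out the untreated libraries left 7 members and leaving out the poly(I:C) libraries left 10. Each high-density library was also deeper than every low-density one, and markers of cell types moved with density: 7 of 11 fibroblast markers tested were higher and 2 lower, 3 of 3 smooth muscle markers were lower (median -0.81), 2 of 3 chondrocyte markers were lower (median -1.0) and the 1 endothelial marker tested was lower (-0.98). The part of depth and of these markers in the members' values was not tested.

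**Figure D5:**
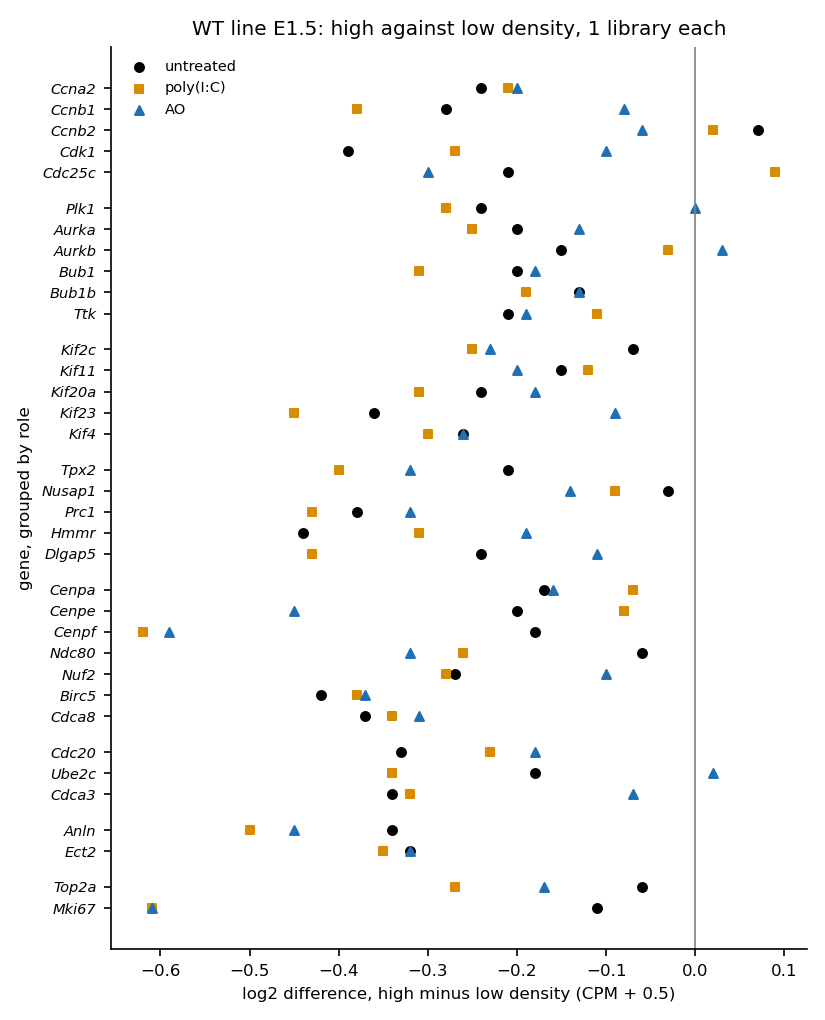
Log2 difference between high and low density in WT line E1.5 for the 35 genes (x axis, from CPM + 0.5; y axis, genes by role), with 1 library per density in each treatment (symbols). For 30 genes all 3 symbols lie left of 0; Cenpf reaches -0.62 under poly(I:C).

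The fall under AO was seen at both densities. Within the high-density libraries 35 members were lower under AO than untreated, 21 of them by over 0.3 log2 units (24.8% of all genes passed that size), with a median of -0.41. Within the low-density ones 34 were lower, 25 by over 0.3 (24% of all genes), with a median of -0.43. Plk1 went from 112 to 66.5 CPM at high and from 133 to 66.7 CPM at low density. Poly(I:C) gave medians of -0.12 at high and -0.04 at low density, with 4 and 2 members lower by over 0.3 (16.5% and 21.2% of all genes). These pairs have no replicates and no test.

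Other cell-cycle genes put the members in context. Of 66 further G2 and mitosis genes 38 fell and 2 rose under AO (beside 16.7% and 17% of all genes), with a median of -0.29. Fam83d, a spindle protein, changed by -1.10 ± 0.08 and the kinase Mastl by -0.90 ± 0.08. Genes of S phase did not move as a body: of 40, 6 fell and 10 rose, with the thymidine kinase Tk1 at -0.59 ± 0.08 and the origin-licensing gene Cdt1 at 0.78 ± 0.10. Of 13 condensin and cohesin genes 1 fell, Ncapd2 (-0.76 ± 0.07), and 3 rose, with Ncapg2 at 0.34 ± 0.12. The anaphase-promoting complex subunits gave 6 lower, among them the cofactor Fzr1 (-0.59 ± 0.08), and 1 higher, Anapc16 (0.64 ± 0.08), of 15. Without E1.4 the further G2 and mitosis genes gave 43 lower and 1 higher, and the S phase genes 8 and 13. The condensin and cohesin genes gave 2 and 3, and the anaphase-promoting complex subunits 8 and 2. All 4 lists stand beside 20.3% of all genes lower in that fit.

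Regulators of these genes went in both directions. Counts in this paragraph stand beside 16.7% of all genes lower and 17% higher under AO. Of 22 regulators, 3 fell and 7 rose, with the MuvB subunit Lin54 at 0.84 ± 0.09 and E2f4, a DREAM component, at 0.34 ± 0.05. The activators Foxm1 (-0.11 ± 0.07, adjusted p = 0.242) and Mybl2, or B-Myb (-0.16 ± 0.07, adjusted p = 0.0886), did not pass in edgeR. Among 25 CDK inhibitors, p53 targets and checkpoint genes 5 fell and 7 rose, with the stress gene Gadd45a at 2.12 ± 0.21 and Ccng2 at -0.84 ± 0.11. Cdkn1a, which encodes the CDK inhibitor p21, was at 0.55 ± 0.27, adjusted p = 0.118 (edgeR). Of 8 G1 genes Myc rose (1.28 ± 0.11), and cyclin D3 (Ccnd3, -0.75 ± 0.14) and Ccnd1 fell. Without E1.4 the regulators gave 5 lower and 8 higher, the CDK inhibitor list 6 and 8, and the G1 genes 2 and 1. In that fit 20.3% of all genes passed as lower, and the share higher is not given here.

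Under poly(I:C) 18 of the 66 further G2 and mitosis genes fell and 3 rose (11.8% and 9.91% of all genes), with a median of -0.11, and 2 of 40 S phase genes fell and 8 rose. Without E1.4 these counts were 23 and 3, and 2 and 10, beside 17% of all genes lower. At high density 16 of the 66 were lower and 0 higher (8.41% and 8.62% of all genes). Foxm1 was lower there (-0.37 ± 0.06, adjusted p = 0.00199; edgeR) and Cdkn1a higher (0.43 ± 0.09, adjusted p = 0.0073). Neither passed under AO, where the estimate for Cdkn1a was larger and its SE wider. Whether these responses differ between density and AO was not tested.

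Some values are less certain by construction. The expected counts of Ccna2, Kif20a and Kif4 were fractional in all 36 libraries and those of Plk1 in 35, as RSEM gives where reads match several features. Exons of 10 members overlap a gene on the opposite strand, and for 7 of them that gene had over 100 counts in a library, such as Cdc23 for Kif20a, Exosc9 for Ccna2 and Elovl1 for Cdc20. The kit marks strand, but the strand setting of the counting is not given in the sources used here, so reads of such pairs may not be fully separated.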

How the data were processed

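RNA of 36 mouse embryonic fibroblast libraries was measured by sequencing (500 ng of total RNA per library, TruSeq Stranded mRNA, per the labels' protocols). The authors deposited expected counts per gene, which are estimates and can be fractional, made with STAR and RSEM on mm10, per the submitters' processing notes. For versions, the strand setting, the read length and the annotation release, nothing is stated in the sources used here. Expected counts were rounded to whole numbers, before which 6.109% to 13.442% of each library's values were fractional.

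Groups came from sample titles. The 30 libraries of the 9 groups were fitted together in edgeR 4.0.16 (R 4.3.3; TMM, filterByExpr with minimum count 10 and minimum total 15, 1 coefficient per group, quasi-likelihood F test). Calls needed an adjusted p (Benjamini-Hochberg) under 0.05 over the 13364 genes tested, with no fold limit. A value for the mean of the genotypes averages the 3 contrasts. The 9 libraries of line E1.5 had a fit of their own, on treatment and density (4 residual degrees of freedom). Log2 changes carry SE and levels SD over lines. Per-line changes used CPM + 0.5, and RPKM the APPRIS principal transcript of GENCODE vM21 (GRCm38), to which 49326 of 49585 identifiers matched. Tables and figures used Python 3.11.15 with pandas 2.3.3, scipy 1.17.1 and matplotlib 3.10.9.

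Each line is named in the labels of all 3 treatments. Deviations from group means correlated between same-line libraries in all 30 pairs (r 0.342 to 0.765), so the libraries of a line are paired. The main fit had no block for the line and did not use this pairing. A fit with the line as a block was an alternative. Others were RLE factors, no filter, DESeq2 1.42.0, the compared groups alone, E1 or E2 of the line name as a covariate, and the omission of each line in turn. Libraries of 1 group differed beyond counting noise (chi-square per degree of freedom 5.61 to 65.8), so none were merged. Whether lines come from separate embryos is not stated. In the fits of the 9 groups p-values measure the spread between lines. The density p-values rest on 1 line and do not speak for other lines.

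The members and lists were chosen with earlier results of these data known. Genes with values in every group are the 2 most abundant of each role class, the 3 largest called changes of each comparison and any member called against the majority; for the other lists, the 2 genes with the smallest p under AO.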

Additional observations from a re-analysis of the deposited data

Results flagged for a closer look

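In groups of 4 lines, the highest or lowest value was marked where its gap to the next took up more of the group's range than Dixon's 95% critical value, and only the het groups have 4 lines. Of 105 values tested 3 were marked, where chance marks about 1 in 20, and all 3 came from het line E2.6. Kif4 read 119 CPM untreated in that line, against 108 in each of the other three. Ccnb2 read 59.9 CPM under poly(I:C), below 86.0 to 90.3 in the others. Nusap1 read 62.8 CPM under AO, below 82.8 to 85.9.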

How the results depend on the processing

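The main counts kept their direction. With RLE factors, no filter, DESeq2, the covariate, the line as a block or the compared groups alone, the median log2 change of the members ran, leaving out lines included, from -0.48 to -0.421 under AO, from -0.111 to -0.075 under poly(I:C) and from -0.337 to -0.291 between them (means of the genotypes). Within genotypes the counts of lower members moved, and the share of all genes in these fits is not given here. For AO they were 27 with the compared groups alone and 8 without a filter in WT lines, 28 with the line as a block in het lines and 0 with the compared groups alone in hom lines. For poly(I:C) in WT lines they were 2 with DESeq2, 1 with the covariate, 5 with the groups alone and 8 with the block. In het lines they were 2, 2, 0 and 8 in that order and 0 without a filter, and in hom lines 0 with the groups alone, 0 without a filter and 2 with the block. With the block 2 members were higher under poly(I:C) and 1 was higher under AO than under poly(I:C), in the means. The causes were not tested. Leaving out each line in turn gave 7 in WT and 10 to 21 in hom lines for AO, 0 to 2 in het and 0 to 4 in hom lines for poly(I:C), and for the poly(I:C) mean 6 to 15 lower and 0 to 1 higher. Between AO and poly(I:C) it gave 0 to 1 higher, and Birc5 ran from -0.12 to 0.149, reversed without E1.4 (0.07 with all lines). Density gave 7 to 15 lower when 1 treatment was left out. Every genotype comparison stayed at 0 members. No paired value exists for contrasts between genotypes.

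Without TMM, 13 group levels of the most abundant members moved by over 1 SD and 131 did not. With 3 or 4 lines a group, the median full width of a member's 95% interval for a treatment within a genotype was 0.5 to 0.59 log2 units. Small changes were thus often not detectable, though some changes smaller than that width passed.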
